A study of Mus musculus with 6 samples.

Results

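Endothelial cells are held together by adherens and tight junctions, and 9 genes of these junctions were described in liver sinusoidal endothelial cells (LSECs) of *Txnip-/-* and wild-type (WT) mice. They were chosen by symbol as adherens and tight junction genes of endothelium: *Cdh5*, *Ctnnb1*, *Cldn5*, *Ocln*, *Tjp1*, *Esam*, *F11r*, *Jam2* and *Jam3*. Each of the 9 symbols had a single row among the 23282 rows of the count tables.

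The study isolated LSECs from *Txnip-/-* mice on a C57BL/6J background, which lack thioredoxin-interacting protein, and from C57BL/6J WT mice as controls, and sequenced 3 libraries per genotype. Positive selection with magnetic beads against CD146, the product of *Mcam*, enriched the cells. The study kept its animals on chow and grew selected LSECs in endothelial medium, but the age and sex of the sequenced mice, and whether these cells were cultured before lysis, are not given in the sources used here. The libraries were made with the QuantSeq 3′ method, in which reads come from the polyadenylated end of a transcript, so a count is not divided by transcript length.

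VE-cadherin, the product of *Cdh5*, joins neighbouring endothelial cells at adherens junctions and is tied to actin through the catenins. Claudins and occludin form the strands of tight junctions, on which ZO-1 acts as a scaffold, while ESAM and the JAM proteins are immunoglobulin-like adhesion molecules at the same borders. LSECs are fenestrated and lack an organized basement membrane, and their junctions differ from those of the tight continuous endothelium of the brain.

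The counts summed to 9147764, 10193952 and 9632360 in *Txnip-/-* replicates 1, 2 and 3, and to 9745357, 9951078 and 9699159 in the WT replicates. Levels are given in CPM, counts scaled by library size with TMM factors. *Txnip* was at 30.0, 22.0 and 20.4 CPM in the *Txnip-/-* libraries and at 185, 192 and 211 CPM in the WT libraries, so all 6 libraries matched their labels. *Rn45s*, the row of the ribosomal RNA precursor, held 17.0%, 18.6% and 16.8% of the *Txnip-/-* counts and 10.03%, 9.68% and 17.8% of the WT counts. WT replicates 1 and 2 thus stood apart from the other 4 libraries. The labels do not say that the libraries came from separate animals, so p-values measure the spread between these samples, which may be technical.

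The markers of endothelium were abundant in all 6 libraries. The 8 general endothelial markers summed to 2438, 2481 and 2299 CPM in *Txnip-/-* and to 2544, 2567 and 3019.6 CPM in WT LSECs, led by *Pecam1*, so every *Txnip-/-* sum was below every WT sum, and *Mcam*, used to select the cells, is among them. The 8 sinusoidal markers summed to 2314, 2466 and 2839 CPM in *Txnip-/-* LSECs and to 4559, 4861 and 2572 CPM in WT LSECs. Here WT replicate 3 lay among the *Txnip-/-* libraries, as did its most abundant gene *Lyve1*, at 1475, 1642 and 1976 CPM in *Txnip-/-* and 3482, 3780 and 1520 CPM in WT LSECs. Of these 8 genes, *Stab1* and *Stab2* passed the test and were lower in *Txnip-/-* LSECs.

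Markers of other liver cells moved with genotype. The 8 markers of Kupffer cells and macrophages summed to 262, 260.4 and 273 CPM in *Txnip-/-* and to 594, 578 and 587 CPM in WT libraries. All 8 had lower values in *Txnip-/-* LSECs, 7 passed the test, none was at 0, and the most abundant was *Marco*. The 8 markers of stellate cells and fibroblasts went the other way, with sums of 50.1, 61.1 and 59.1 CPM in *Txnip-/-* and 29.3, 25.8 and 28.0 CPM in WT libraries. Among them 7 were tested and 2 passed, both higher in *Txnip-/-* LSECs, and *Dcn* was the most abundant. *Lrat* had no count in WT replicates 2 and 3, and *Col3a1* had none in WT replicate 3. *Reln* had none in *Txnip-/-* replicate 1 and in WT replicate 3. In such bulk libraries fewer cells of a type and less RNA per cell cannot be told apart. The part of these cells in the junction values was not tested.

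Markers of the remaining cell types were at lower levels than those of endothelium. Hepatocyte markers, led by *Alb*, summed to 59.7, 55.2 and 63.9 CPM in *Txnip-/-* and 51.6, 50.01 and 52.1 CPM in WT libraries, so every *Txnip-/-* sum was above every WT sum. Of the 7 tested 6 had higher values in *Txnip-/-* LSECs. The exception was *Alb* itself, with means of 20.3 CPM in *Txnip-/-* and 22.4 CPM in WT libraries, which overlapped. The marker that was not tested was lower in every *Txnip-/-* library than in any WT library. No marker was at 0 in all libraries, and the part of these cells in the junction values was not tested. Cholangiocyte markers, led by *Cftr*, summed to 2.43 to 7.34 CPM, and platelet markers, led by *Pf4*, to 13.5 to 26.0 CPM with *Gp9* at 0. Of 8 lymphocyte markers 6 were at 0 in every library, among them *Cd3e*, *Nkg7*, *Klrb1c*, *Cd79b* and *Ms4a1*, and the sum of all 8 did not exceed 0.641 CPM. Of 5 neutrophil markers *Mpo*, *Elane* and *Retnlg* were at 0, and the sum did not exceed 1.53 CPM.

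The members spanned a wide range of levels in WT LSECs. *Cdh5* was the highest, at rank 77 of the 11583 genes that passed the filter on low counts, followed by *Ctnnb1* at rank 199 and *Esam* at rank 300. *F11r* (rank 598) and *Tjp1* (rank 637) overlapped in their WT libraries, as did *Jam2* (rank 5262) and *Cldn5* (rank 5840). *Jam3* (rank 7737) lay below both, and *Ocln* did not pass the filter. All other neighbours in this order were apart in WT libraries. The order in *Txnip-/-* LSECs was the same except that every *F11r* value there lay below every *Tjp1* value, and *Jam2* lay above *Cldn5* without overlap. Together the 9 members took 2491, 2607 and 2487 CPM in *Txnip-/-* and 2623, 2548 and 2743 CPM in WT LSECs, of which *Cdh5* alone made up 39.4% to 44.8%.

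**Figure D1:**
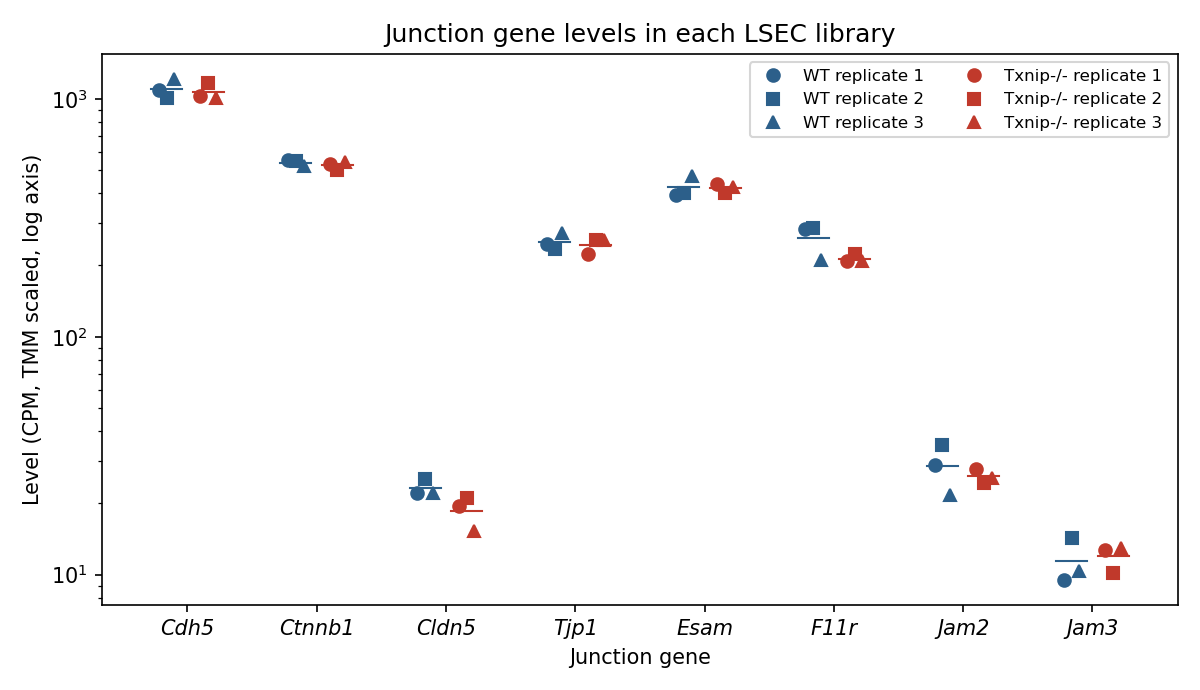
Level of the 8 tested junction genes in each of the 6 LSEC libraries, in CPM after TMM scaling on a log axis. Points are libraries, shapes are replicate numbers, blue is WT, red is *Txnip-/-*, and each line is the mean of 3 libraries. The genotypes overlapped in every gene except *Cldn5*, and *F11r* was high in WT replicates 1 and 2.

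None of the 8 tested members passed edgeR's quasi-likelihood test at an adjusted p under 0.05 (0 of 8), against 179 of 11583 genes or 1.55% in the whole table. DESeq2 and limma-trend also called 0 members. With each library left out in turn, 89 to 367 genes were called in the whole table and 0 to 1 among the members (edgeR). At an unadjusted p under 0.05 there was 1 member, *F11r*, beside 11.5% of all genes, and 1 member, *Cldn5*, had genotypes without overlap, beside 17.4% of all genes. These shares are near the background. The members had a median log2 fold change of -0.041, with 7 below 0 and 1 above, and of all genes tested 5791 lay above 0 and 5792 below. Without WT replicate 3, and also when a term set WT replicates 1 and 2 apart, 4 members were below and 4 above 0, so this split depended on the WT libraries used.

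*Cdh5*, the adherens junction cadherin of endothelium, lies at chr8:104101625-104144511 on the plus strand (GRCm38, GENCODE M21). Its level was 1031, 1169 and 1007 CPM in *Txnip-/-* replicates 1, 2 and 3 and 1087, 1005 and 1210.15 CPM in the WT replicates. The genotypes overlapped throughout, with WT replicate 2 the lowest and WT replicate 3 the highest of all 6 libraries. The mean was 1069 ± 87.7 CPM in *Txnip-/-* and 1101 ± 103 CPM in WT LSECs (SD, n = 3 each). The log2 fold change was -0.042 with a 95% interval from -0.22 to 0.14 (adjusted p = 0.912, edgeR), so in this fit a fall to below 0.858-fold or a rise above 1.10-fold lay outside the interval. The value was 0.031 without WT replicate 3 (adjusted p = 0.908, edgeR) and -0.18 when a term set WT replicates 1 and 2 apart (adjusted p = 0.349, edgeR), so these limits hold for the main fit only.

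*Ctnnb1* (chr9:120929216-120960507, plus strand) encodes beta-catenin, which binds the cadherin tail and also acts in Wnt signalling. It was at 530.4, 504 and 540.3 CPM in *Txnip-/-* and 554, 546 and 519 CPM in WT libraries. WT replicates 1 and 2 were the highest and WT replicate 3 lay within the *Txnip-/-* range. The log2 fold change was -0.040 with an interval from -0.20 to 0.12 (adjusted p = 0.909, edgeR), -0.067 without WT replicate 3 (adjusted p = 0.737, edgeR) and 0.015 with the term for WT replicates 1 and 2 (adjusted p = 0.960, edgeR). The 3′ end of *Ctnnb1* overlaps exons of *Ulk4* on the opposite strand, and use of strand in the counting is not given, so its counts may include reads of that gene. The ratio of *Cdh5* to *Ctnnb1* counts was 2.04 ± 0.24 in *Txnip-/-* and 2.04 ± 0.25 in WT LSECs, which did not differ beyond their spread.

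*Cldn5* (chr16:18776847-18778262, plus strand, 1 exon) encodes the main claudin of endothelial tight junctions. Its counts were 174, 207 and 143 in *Txnip-/-* and 226, 264 and 209 in WT libraries, or 19.4, 21.1 and 15.3 against 22.0, 25.1 and 22.1 CPM. Every *Txnip-/-* value lay below every WT value on either scale, and in CPM *Txnip-/-* replicate 2 and WT replicate 1 were the nearest. The log2 fold change of -0.31 had an interval from -0.71 to 0.086 and did not pass (adjusted p = 0.575, edgeR). It was -0.19 without *Txnip-/-* replicate 3, the lowest library, and lay between -0.41 and -0.19 with each library left out. A fall to 0.612-fold and a rise to 1.06-fold both lay within the interval. The ratio of *Cdh5* to *Cldn5* counts was 58.1 ± 6.82 in *Txnip-/-* and 48.0 ± 7.49 in WT LSECs, and its values overlapped between genotypes.

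*Ocln* (chr13:100496507-100552718, minus strand), which encodes occludin, was at the limit of detection. It had 10, 0 and 0 counts in *Txnip-/-* and 0, 1 and 3 counts in WT libraries. A single library, *Txnip-/-* replicate 1, was above the floor of 3 counts, which equals 0.286 to 0.335 CPM over the 6 libraries. A difference was not detectable at this depth.

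*Tjp1* (chr7:65296165-65527781, minus strand), which encodes the scaffold ZO-1, was at 223, 253.9 and 254.0 CPM in *Txnip-/-* and 246, 233 and 273 CPM in WT LSECs. The genotypes overlapped, with WT replicate 3 the highest. The log2 fold change was -0.041 with an interval from -0.24 to 0.16 (adjusted p = 0.921, edgeR). It had the other sign without *Txnip-/-* replicate 1 (0.020) and without WT replicate 3 (0.024), and was -0.16 with the term for WT replicates 1 and 2 (adjusted p = 0.523, edgeR).

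*Esam* (chr9:37528078-37538319, plus strand), an adhesion molecule of endothelial cells and platelets, was at 438, 402 and 424 CPM in *Txnip-/-* and 394, 402 and 476 CPM in WT LSECs. The *Txnip-/-* values all lay inside the WT range, with WT replicates 1 and 2 the lowest of the 6 libraries and WT replicate 3 the highest. The log2 fold change was -0.0086 with an interval from -0.20 to 0.18 (adjusted p = 0.983, edgeR). Without WT replicate 3 it turned to 0.081 (adjusted p = 0.693, edgeR), without *Txnip-/-* replicate 2 to 0.025, and with WT replicates 1 and 2 set apart it was -0.17 (adjusted p = 0.382, edgeR). The direction and size thus depended on the libraries used.

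*F11r* (chr1:171437535-171464603, plus strand) encodes JAM-A, a partner of ZO-1 and of the polarity protein PAR3. It was at 208.0, 222 and 207.7 CPM in *Txnip-/-* libraries and at 283, 287 and 210.5 CPM in WT replicates 1, 2 and 3. WT replicates 1 and 2 were above the other 4 libraries, and WT replicate 3 lay within the *Txnip-/-* range. Over all 6 libraries the log2 fold change was -0.29 with an interval from -0.52 to -0.059 (adjusted p = 0.284, edgeR). Without WT replicate 3 it was -0.42 (adjusted p = 0.00415, edgeR), the lowest adjusted p among the alternatives, which ranged to 0.966. With a term that set WT replicates 1 and 2 apart, which leaves WT replicate 3 as the lone WT library and assumes that it varies like the others, the log2 fold change was 0.015 (adjusted p = 0.966, edgeR). The value of *F11r* therefore depended on which WT libraries were used.

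*Jam2* (chr16:84774123-84825928, plus strand) and *Jam3* (chr9:27097384-27155421, minus strand) encode JAM-B and JAM-C, which bind each other across cell contacts. *Jam2* had 249, 238 and 239 counts in *Txnip-/-* and 296, 367 and 205 counts in WT libraries, with WT replicates 1 and 2 the highest and WT replicate 3 the lowest of all 6 on either the count or the CPM scale. Its log2 fold change was -0.14 with an interval from -0.53 to 0.25 (adjusted p = 0.860, edgeR). It was -0.30 without WT replicate 3 (adjusted p = 0.470, edgeR), 0.033 without WT replicate 2 and 0.25 (adjusted p = 0.689, edgeR) with the term for WT replicates 1 and 2. *Jam3* had 114, 100 and 121 counts in *Txnip-/-* and 98, 150 and 98 counts in WT libraries, which overlapped. Its log2 fold change of 0.067 had an interval from -0.46 to 0.59 (adjusted p = 0.953, edgeR) and was -0.018 without normalization factors, -0.049 without WT replicate 1 and 0.26 without WT replicate 2. The intervals of both genes were wider than that of *Cdh5*. Of the counts of the 3 JAM genes, *F11r* took 84.9% ± 1.51 in *Txnip-/-* and 86.7% ± 1.34 in WT LSECs, *Jam2* took 10.3% ± 0.87 and 9.43% ± 0.82, and *Jam3* took 4.78% ± 0.71 and 3.83% ± 0.74. These shares overlapped between genotypes.

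The widest range among the 8 tested members was that of *Cldn5*, whose highest and lowest libraries were 0.71 apart on the log2 scale. The 3 genes whose log2 CPM followed it most closely over the 6 libraries were *Lss* (Pearson r = 0.994), *Paip2* (r = 0.990) and *Cenpu* (r = 0.989). With 11582 genes compared over 6 libraries, 40 had an r above 0.95, so a high r is a description only. *Lss* and *Cenpu* were low genes, at 0.855 to 7.62 and 0.641 to 4.29 CPM.

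**Figure D2:**
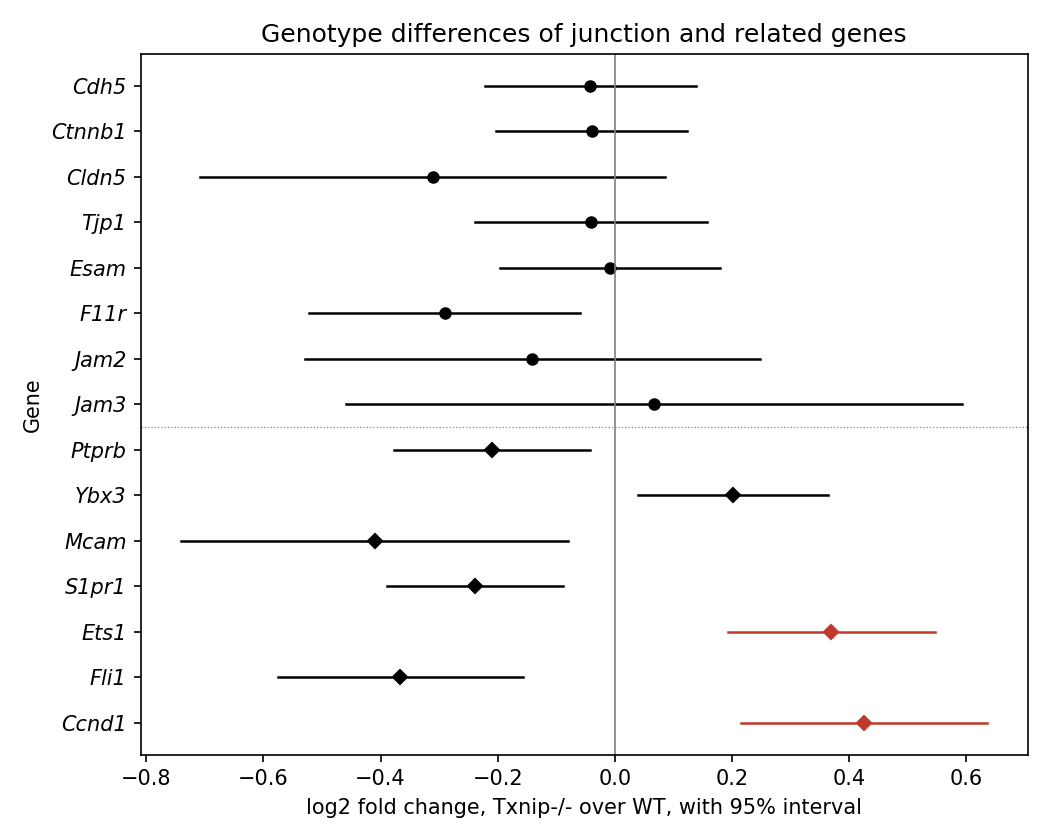
Log2 fold change of *Txnip-/-* over WT LSECs with its 95% interval, for the 8 tested junction genes (circles) and for genes of the related lists with an unadjusted p under 0.05 that were named by list membership and level or call (diamonds). Red marks an adjusted p under 0.05 (edgeR), reached by *Ets1* and *Ccnd1*, and the interval of *F11r* alone among the circles lies wholly below 0.

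Genes that work with the members differed at shares near those of all genes. Of 80 related junction genes in 4 lists, 79 had a row and 59 were tested. Of these, 0 passed edgeR's test at an adjusted p under 0.05, beside 1.55% of all genes. With DESeq2 there was 1, *S1pr1*, and with limma-trend 0. At an unadjusted p under 0.05 there were 8 of 59 (13.6%, beside 11.5% of all genes), 5 of them higher and 3 lower in *Txnip-/-* LSECs, and 11 of 59 had genotypes without overlap (18.6%, beside 17.4% of all genes). Their median log2 fold change was 0.014.

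All 15 adherens junction partners were tested, 8 with values above 0 and 7 below. *Ctnna1*, the actin-linking alpha-catenin, was at 752 ± 14.1 CPM in *Txnip-/-* and 768 ± 40.4 CPM in WT LSECs, and *Ctnnd1*, the p120-catenin that holds cadherins at the membrane, at 298 ± 12.7 and 313 ± 17.1 CPM. Afadin, listed as *Mllt4*, was at 142 ± 17.4 and 136 ± 16.1 CPM. None of these differed beyond the spread. *Ptprb*, the phosphatase VE-PTP that associates with VE-cadherin, was at 369, 375 and 386 CPM in *Txnip-/-* and 447, 443 and 416 CPM in WT LSECs, without overlap, but did not pass (log2 fold change -0.21, adjusted p = 0.286, edgeR). At an unadjusted p under 0.05 there were 2 of the 15 (13.3%, beside 11.5% of all genes). These were *Ptprb* and, with higher values in *Txnip-/-* LSECs, the N-cadherin gene *Cdh2*, named here after its values were seen.

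Of 36 tight junction partners 19 were tested, 9 above and 10 below 0. The remaining 17 were below the filter, 3 of them (*Cldn10*, *Cldn14* and *Inadl*) at 0 in all libraries, and of the 11 other claudins listed only *Cldn12* was tested, at 17.1 ± 4.26 CPM in *Txnip-/-* and 16.9 ± 1.19 CPM in WT LSECs. The most abundant, *Ybx3*, a Y-box protein that binds ZO-1, was at 729, 728 and 724 CPM in *Txnip-/-* and 594, 631 and 672 CPM in WT LSECs. Its genotypes did not overlap, but the difference did not pass (log2 fold change 0.20, adjusted p = 0.291, edgeR). *Amotl1* and *Mpp5* had log2 fold changes of -0.026 and -0.070, with adjusted p of 0.954 and 0.905 (edgeR). At an unadjusted p under 0.05 there were 4 of the 19 tested partners (21.1%, beside 11.5% of all genes), all with higher values in *Txnip-/-* LSECs: *Ybx3*, *Pard6g*, *Pard3* and *Prkci*, the last 3 named here after their values were seen. None of the 4 passed after adjustment (edgeR).

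Among other border and gap junction genes 7 of 9 were tested, 5 above and 2 below 0. *Pecam1* was at 868, 955 and 833 CPM in *Txnip-/-* and 861, 844 and 1098 CPM in WT LSECs, which overlapped (log2 fold change -0.077, adjusted p = 0.851, edgeR). *Mcam*, whose product was used to select the cells, was at 46.1, 39.3 and 39.0 CPM in *Txnip-/-* and 56.8, 65.8 and 42.5 CPM in WT LSECs. As with *F11r*, WT replicates 1 and 2 were the highest and WT replicate 3 lay within the *Txnip-/-* range. Its log2 fold change was -0.41 (adjusted p = 0.291, edgeR), and -0.57 without WT replicate 3 (adjusted p = 0.0307, edgeR, the lowest of alternatives that ranged to 0.956). *Icam2* and the connexin gene *Gja1* had log2 fold changes of 0.22 and 0.14, with adjusted p of 0.605 and 0.693 (edgeR).

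Of 20 listed regulators of junctions, which include genes of RAP1 signalling and the CCM complex, 18 were tested, 8 above and 10 below 0. *S1pr1*, a receptor that favours junction assembly, was at 899, 885 and 841 CPM in *Txnip-/-* and 1049, 1034 and 1016 CPM in WT LSECs. Every *Txnip-/-* library was below every WT library, the log2 fold change was -0.24 with an interval from -0.39 to -0.088, and the adjusted p was 0.134 (edgeR). It was 0.0156 with DESeq2, within a range of 0.0156 to 0.411 over the alternatives. *Cdc42*, *Rac1* and *Rock1*, which act on the actin cytoskeleton, had log2 fold changes of 0.020, -0.055 and -0.18 and did not pass (adjusted p = 0.954, 0.866 and 0.542, edgeR).

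All 7 transcription factors known to act on *Cdh5* or *Cldn5* were tested, and 1 passed, beside 1.55% of all genes. *Ets1*, an ETS factor, was at 332, 337 and 353 CPM in *Txnip-/-* and 249, 274 and 268 CPM in WT LSECs. It was higher in 3 of 3 *Txnip-/-* libraries than in any WT library, and the log2 fold change was 0.37 ± 0.084 (standard error) with an edgeR adjusted p of 0.0319. Without 1 library in turn its log2 fold change stayed between 0.33 and 0.40. Its adjusted p then ranged from 0.00851 to 0.243 (edgeR) and was under 0.05 only without WT replicate 3. *Ets1* passed with DESeq2 (adjusted p = 0.000627) and limma-trend (adjusted p = 0.0247). It did not pass without normalization factors (0.29, adjusted p = 0.141, edgeR) or with a block for replicate number (0.37, adjusted p = 0.109, edgeR). With WT replicates 1 and 2 set apart by a term, which leaves a lone WT library, its log2 fold change was 0.35 and it did not pass. The other 6 had lower values in *Txnip-/-* LSECs and did not pass the edgeR test. The ETS factor *Fli1* was at 104, 94.8 and 95.5 CPM in *Txnip-/-* and 123.1, 122 and 135 CPM in WT LSECs, without overlap (log2 fold change -0.37, adjusted p = 0.0871, edgeR). It passed with DESeq2 (adjusted p = 0.0454), without normalization factors (adjusted p = 0.0324, edgeR) and without a filter on low counts (adjusted p = 0.0464, edgeR), and over the alternatives its adjusted p ranged from 0.0324 to 0.247. *Sox17* and *Foxo1* had log2 fold changes of -0.13 and -0.21 (adjusted p = 0.613 and 0.531, edgeR). Over the list 6 of 7 had genotypes without overlap, 5 of them lower in *Txnip-/-* LSECs, beside 17.4% of all genes, and the median log2 fold change was -0.22. At an unadjusted p under 0.05 there were 4 of 7 (57.1%, beside 11.5% of all genes), *Ets1* with higher and *Fli1*, *Erg* and *Sox18* with lower values in *Txnip-/-* LSECs, the last 2 named here after their values were seen. Any relation of these factors to the junction genes was not tested.

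Genes that beta-catenin induces in many tissues were mostly low. Of 11 such genes 3 were tested and 1 passed, beside 1.55% of all genes. *Axin2*, *Lef1*, *Tcf7*, *Sp5*, *Rnf43*, *Notum* and *Lgr5* had means below 1 CPM in both genotypes, with *Apcdd1* at 0. *Ccnd1*, which encodes cyclin D1 and answers to many signals, was at 129, 130.8 and 132 CPM in *Txnip-/-* and 97.2, 105.5 and 89.4 CPM in WT LSECs. It was higher in 3 of 3 *Txnip-/-* libraries (log2 fold change 0.43 ± 0.0996, standard error, with an edgeR adjusted p of 0.0395). Leaving out 1 library in turn gave log2 fold changes from 0.37 to 0.49. The adjusted p then ranged from 0.0484 to 0.203 (edgeR) and was under 0.05 only without WT replicate 3. *Ccnd1* passed with DESeq2 (adjusted p = 0.00888) and limma-trend (adjusted p = 0.0371). It did not pass without normalization factors (0.34, adjusted p = 0.175, edgeR) or with a block for replicate number (0.43, adjusted p = 0.105, edgeR). With WT replicates 1 and 2 set apart by a term, which leaves a lone WT library, its log2 fold change was 0.55. Its 3′ end overlaps exons of *LTO1* on the opposite strand. *Nkd1* and *Znrf3* were low and did not pass (adjusted p = 0.929 and 0.840, edgeR).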

How the data were processed

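The RNA of 3 *Txnip-/-* and 3 WT libraries of LSECs was compared. The deposited values are counts: the authors used Bowtie2 to align 75-base single-end QuantSeq reads and Bedtools to count them by gene, including reads with several alignments, and did not normalize them. The submitters' processing notes name the build mm10. Tool versions, the annotation and use of strand are not given in the sources used here.

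The quasi-likelihood test of edgeR 4.0.16 (R 4.3.3) was run on the 11583 genes kept by filterByExpr, with TMM factors and a single genotype term, and p-values were adjusted over all of them by the Benjamini-Hochberg method. Each standard error was taken from the fold change and the F value, and 95% intervals from these and the test's degrees of freedom. Alternatives were DESeq2 1.42.0, limma-trend 3.58.1 (prior count 2), other normalization factors and filters, a replicate block, each library left out, the *Rn45s* row left out, a term for WT replicates 1 and 2, and other thresholds. The fits were tested on simulated data. Members and lists were chosen with earlier results of these data known.

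Named genes were the 9 members, *Txnip*, every gene of a list with an adjusted p under 0.05, the 4 tested genes of each list with the highest mean CPM in WT, and the 3 genes most like the member of widest range. Some listed genes are counted in the totals of their lists but are not reported here on their own. Marker lists are named by their most abundant gene. Floors and intervals cover counting error or sample spread only, since no molecular identifiers are named. Positions and 3′ ends (last 500 bases) are from GENCODE M21, on GRCm38, the assembly also called mm10. No stretch of 75 bases at the 3′ end of a member occurred in the transcripts of another gene, other than *Ulk4*.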

Additional observations from a re-analysis of the deposited data

How the results depend on the processing

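The count of members called was 0 under every alternative other than 2: it was 1, *F11r*, without WT replicate 3 and at an unadjusted p under 0.05, so that it ranged from 0 to 1 with each library left out. Related junction genes called were 0 to 3 with a library left out, the 3 without WT replicate 3 being *Ybx3*, *Mcam* and *S1pr1*, and were 1 with DESeq2 and 8 at an unadjusted p under 0.05. Over all genes the count of 179 became 89 to 367 with a library left out and 1336 at an unadjusted p under 0.05. Without a filter on low counts it was 346, but that fit had infinite prior degrees of freedom against 12.9, so that each gene was tested with the spread of genes at its level and not with its own. Without normalization factors 36 genes were called higher and 150 lower, against 66 and 113.

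With the replicate block 108 genes were called in place of 179, and *Ets1* (0.37, adjusted p = 0.109, edgeR) and *Ccnd1* (0.43, adjusted p = 0.105, edgeR) did not pass. They also did not pass without normalization factors (0.29, adjusted p = 0.141, and 0.34, adjusted p = 0.175, edgeR). With WT replicates 1 and 2 set apart, which leaves a lone WT library, the log2 fold change was 0.35 for *Ets1*, which did not pass, and 0.55 for *Ccnd1*. Among the members and related junction genes the block changed no call. Libraries with the same number did not deviate together (correlations -0.030, 0.017 and -0.047). The labels name no pairs, and with 3 libraries per genotype these correlations cannot exclude them.

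Of 128 member values under alternatives, 11 had the other sign, none of them past the threshold, and the cause was not tested. With WT replicates 1 and 2 set apart by a term, the log2 fold change was 0.015 for *Ctnnb1*, 0.015 for *F11r*, 0.25 for *Jam2*, 0.022 for *Ctnnd1*, 0.20 for *Amotl1*, -0.090 for *Icam2*, 0.034 for *Rock1* and 0.16 for *Lyve1*, all with the other sign. It kept its sign at -0.18 for *Cdh5*, -0.16 for *Tjp1*, -0.17 for *Esam*, -0.25 for *Cldn5*, 0.20 for *Jam3*, -0.31 for *Pecam1* (adjusted p = 0.0612, edgeR) and -0.036 for *Mcam*. Without normalization factors it was -0.018 for *Jam3*, -0.032 for *Mllt4* and -0.062 for *Cdc42*. With each library left out it ranged from -0.11 to 0.031 for *Cdh5*, -0.090 to 0.024 for *Tjp1*, -0.060 to 0.081 for *Esam*, -0.41 to -0.19 for *Cldn5*, -0.42 to -0.21 for *F11r*, -0.30 to 0.033 for *Jam2*, -0.049 to 0.26 for *Jam3*, -0.060 to 0.013 for *Ctnna1*, -0.039 to 0.14 for *Mllt4*, -0.13 to 0.035 for *Amotl1*, -0.25 to 0.049 for *Mpp5*, -0.15 to 0.054 for *Pecam1*, -0.0068 to 0.050 for *Cdc42*, -0.52 to 0.14 for *Nkd1* and -0.43 to 0.11 for *Alb*.

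*Ocln*, with 0 to 10 counts per library, was not tested. The intervals of *Cldn5*, *Jam2* and *Jam3* were wider than those of the other tested members, and the parts of depth and of spread between libraries in this were not tested. With 3 libraries per genotype and WT replicates 1 and 2 apart from WT replicate 3, differences between WT libraries and between genotypes cannot be told apart for genes such as *F11r*.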
